A study of Rattus norvegicus with 10 samples.

Results

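Atf4, Ddit3, Atf3 and Asns are 4 genes of the transcriptional programme that follows phosphorylation of the translation factor eIF2alpha. They were taken from the deposited count table by Ensembl identifier and kept because the first chromosome listed for each matched the one stated for it. All 4 of 4 were kept, of 32623 genes in the table. Whole kidneys were compared between 5 control rats (replicates 2 to 6), which could drink freely, and 5 dehydrated rats (replicates 1, 2, 4, 5 and 6), which had no water for 72 hours. All were males of the outbred Sprague-Dawley strain. Each library holds the polyadenylated RNA of the kidney tissue of 1 animal, with between 29454213 and 35898689 assigned fragments, and the stated purpose was to find genes of osmoregulation. The sources used here give no age and no batch. Kidney markers could not be checked by name, because the reference table pairs 0 Ensembl identifiers with a symbol. In whole tissue, a change in the number of cells of a type cannot be told apart from a change in RNA per cell.

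In the integrated stress response, kinases that sense misfolded protein, amino acid shortage, double-stranded RNA or haem shortage phosphorylate eIF2alpha. General translation then slows, while the mRNA of the transcription factor ATF4 is translated more through its upstream open reading frames. ATF4 protein activates genes such as Asns, Atf3 and Ddit3, and because its own control is largely translational, the level of Atf4 mRNA is not a measure of ATF4 protein. The kidney medulla is exposed to high salt and urea when urine is concentrated, and its cells use several stress pathways to tolerate this.

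None of the 4 genes passed the test for a difference between dehydrated and control kidneys. The mean of each gene was higher in dehydrated kidneys, by 7.22% for Atf4, 11.7% for Ddit3, 15.0% for Asns and 28.7% for Atf3 in the fitted fold changes. Ddit3, the gene of the transcription factor CHOP, was the gene whose 5 dehydrated values all lay above its 5 control values. The margin was narrow, and such separation with dehydrated kidneys higher was found for 4.39% of tested genes. The adjusted p of Ddit3 was 0.12 (edgeR quasi-likelihood test, Benjamini-Hochberg over all tested genes). The upper 95% bound of the fold change was 1.17-fold for Atf4, 1.22-fold for Ddit3, 1.37-fold for Asns and 1.78-fold for Atf3. Each interval, from all 10 libraries and not adjusted for the number of genes, thus excluded a 2-fold rise. For Atf3 this leans on control replicate 5. Without that library its log2 fold change was 0.60 (SE 0.18), and no interval was computed. Of all 15047 tested genes, 8.47% were called in either direction, 4.70% higher and 3.77% lower. Called means an edgeR adjusted p below 0.05.

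The promoters of Ddit3, Atf4 and Asns are shown because Ddit3 is known as a target of both ATF4 and ATF6, whose known motifs can be looked for there. RefSeq promoter sequences (assembly GRCr8, an assembly other than the one used for counting) were found for 3 of the 4 genes. The 120 bases just before the annotated start are given 5′ to 3′ on the gene's own strand. They lie at chr7:65001575-65001694 (plus strand) for Ddit3, chr7:113684561-113684680 (plus strand) for Atf4 and chr4:36769416-36769535 (minus strand) for Asns. Capitals mark the match described in the next paragraph.
Ddit3: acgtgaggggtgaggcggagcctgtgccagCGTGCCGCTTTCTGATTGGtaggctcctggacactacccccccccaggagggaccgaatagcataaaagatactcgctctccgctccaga
Atf4: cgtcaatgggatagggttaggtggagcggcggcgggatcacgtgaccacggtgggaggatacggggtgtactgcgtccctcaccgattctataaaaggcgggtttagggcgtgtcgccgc
Asns: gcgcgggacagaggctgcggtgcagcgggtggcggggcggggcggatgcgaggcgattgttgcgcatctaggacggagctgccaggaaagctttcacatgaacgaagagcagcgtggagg

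Windows of 300 bases, 250 before and 50 after the start, were searched on both strands. The endoplasmic reticulum stress response element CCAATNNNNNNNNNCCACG, known as a target of the unfolded protein response factor ATF6 together with NF-Y, had no exact match in the 3 windows. It was found in 0.066% of 33469 promoter windows in the table. A looser form, CCAATNNNNNNNNNNCACG, was written after the promoters had been read. It contains every match of the stricter form, had 1 match among the 3 windows, in Ddit3, and was found in 0.197% of all windows. The Ddit3 match is on the minus strand and runs from 90 to 72 bases before the start. The letters TGATGNAA, shared by several known sites of ATF4 and C/EBP dimers, were found in 3.98% of all windows and in 0 of the 3. Sites farther from the annotated start, or with other letters, were not searched for. The lack of a match therefore does not show that a gene lacks such a site. A match is a description of these letters and not a measured site. No binding was measured in these kidneys.

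Compared per kilobase of exon, the 4 genes differed widely in level and kept the same order in both groups. Atf4 stood at 112 ± 5.72 CPM (counts scaled to a common library total) per kilobase with water and 119.6 ± 8.78 without it (SD, n = 5 each). Ddit3 stood at 27.4 ± 0.750 and 30.6 ± 2.10 CPM per kilobase. Asns followed at 6.21 ± 1.17 and 7.14 ± 0.523 CPM per kilobase. Atf3 was lowest, at 1.19 ± 0.408 and 1.54 ± 0.358 CPM per kilobase. Over all 10 kidneys the ranges were 105 to 132 for Atf4, 26.6 to 33.8 for Ddit3, 4.54 to 7.75 for Asns and 0.919 to 1.96 for Atf3, so no neighbours in this order overlapped. By CPM without regard to length, 94.7% of tested genes lay below Atf4, 56.7% below Ddit3, 43.1% below Asns and 23.8% below Atf3.

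Atf4 encodes the basic leucine zipper factor at the head of this programme. The gene (ENSRNOG00000017801) lies on chromosome 7 of Rnor_6.0 from 121480723 to 121482772 on the plus strand, in 2 merged exons of 1940 bp in all, and overlaps no other annotated gene. Among controls its level was 208, 205, 229.6, 226 and 214 CPM in replicates 2 to 6. In dehydrated replicates 1, 2, 4, 5 and 6 it was 220.5, 256, 240.5, 213 and 230.3 CPM. The groups overlapped: 3 dehydrated kidneys lay above the highest control, while dehydrated replicate 5 lay below control replicate 6. The means were 216 ± 11.1 and 232 ± 17.0 CPM (SD, n = 5), which gave a log2 difference of 0.10 (SE 0.060, 95% interval -0.029 to 0.23; edgeR adjusted p = 0.37). With 6235 to 8469 fragments per library, this was the most precisely counted of the 4 genes, and the difference of the means was smaller than the SD of the dehydrated kidneys.

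Ddit3 encodes CHOP, a transcription factor that pairs with C/EBP proteins and is known for promoting cell death when stress persists. The gene (ENSRNOG00000006789) lies on chromosome 7 from 70580198 to 70585084 on the plus strand, with 4 merged exons of 925 bp. Its span overlaps 1 annotated gene on the minus strand. The counting was set to be stranded, but how fully it kept the fragments of these genes apart was not checked. In control replicates 2 to 6 it stood at 25.8, 24.8, 25.4, 24.6 and 26.3 CPM. In dehydrated replicates 1, 2, 4, 5 and 6 it stood at 26.9, 31.2, 29.1, 26.4 and 28.0 CPM. The lowest dehydrated kidney, replicate 5, was just above the highest control, replicate 6, so the groups met without overlapping.

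For Ddit3 the means were 25.4 ± 0.694 and 28.3 ± 1.94 CPM (SD, n = 5). The control kidneys varied by 2.74% of their mean, less than the 3.37% or so that counting alone would give. Their closeness is therefore not read as a property of the gene. The log2 fold change was 0.16 (SE 0.058), a 1.12-fold difference with a 95% interval of 1.02 to 1.22 that is not adjusted for the number of genes. Its unadjusted p was 0.016 and its adjusted p 0.12 (edgeR), and 13.5% of tested genes had a smaller p. Groups that did not overlap, with dehydrated kidneys higher, were found for 660 genes, 4.39% of those tested, and 536 of these 660 were called. Ddit3 was among the other 124. The authors' deposited table gives a log2 difference of 0.16 (SE 0.065) with an adjusted p of 0.099 for Ddit3.

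**Figure D1:**
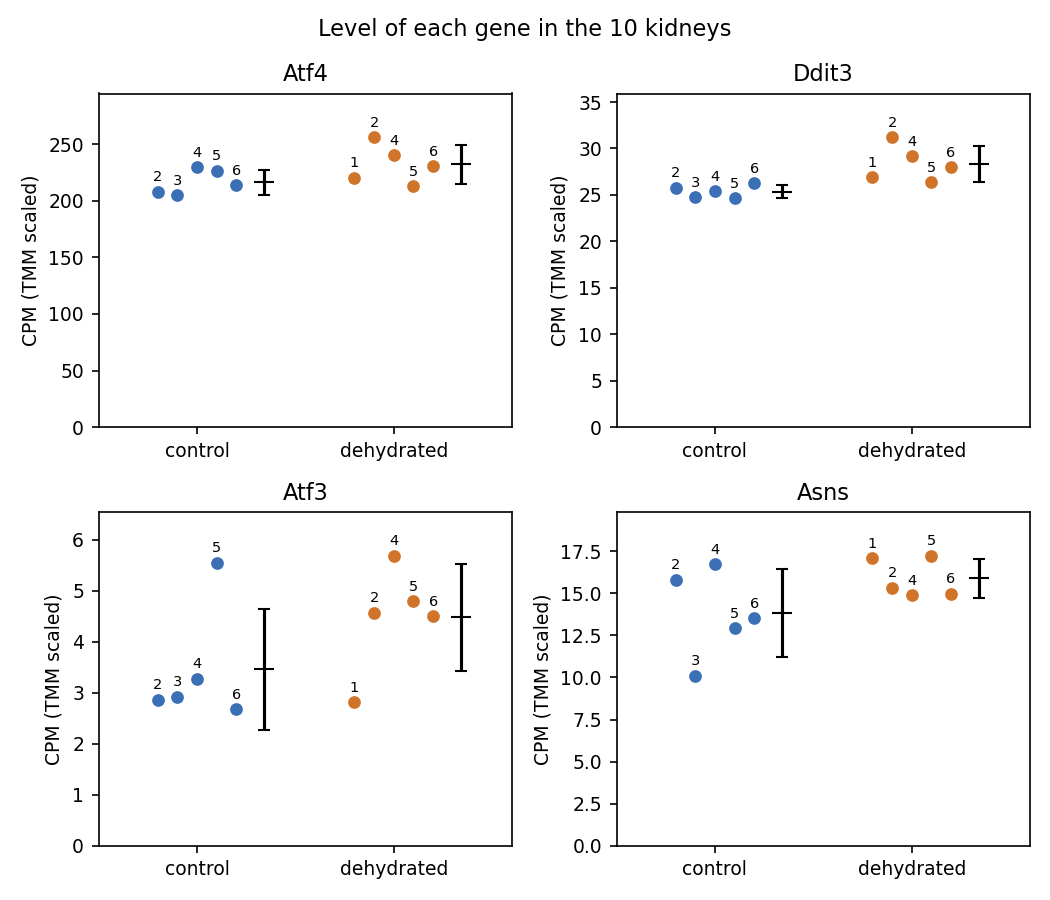
Level of Atf4, Ddit3, Atf3 and Asns in each kidney, in CPM with TMM scaling (y axis, from 0), by group (x axis). Points are single kidneys with their replicate numbers, and bars show mean ± SD of 5 kidneys. The 5 dehydrated Ddit3 values lie above the 5 controls by a narrow margin, a separation found for 4.39% of tested genes. The groups of the other 3 genes overlap, and control replicate 5 stands apart for Atf3 at 5.54 CPM.

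Atf3 encodes a basic leucine zipper factor that is known as an early responder to many kinds of stress. The gene (ENSRNOG00000003745) lies on chromosome 13 from 109817728 to 109849632 on the minus strand, in 4 merged exons of 2909 bp, and overlaps no other annotated gene. In control replicates 2 to 6 its level was 2.86, 2.92, 3.28, 5.54 and 2.67 CPM. In dehydrated replicates 1, 2, 4, 5 and 6 it was 2.81, 4.57, 5.69, 4.80 and 4.50 CPM. Control replicate 5 lay among the dehydrated kidneys and dehydrated replicate 1 among the controls, so the groups overlapped.

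The Atf3 means were 3.46 ± 1.19 and 4.47 ± 1.04 CPM (SD, n = 5), which gave a log2 difference of 0.36 (SE 0.22, 95% interval -0.10 to 0.83; edgeR adjusted p = 0.37). This was the largest estimate of the 4 genes and the least precise. Between kidneys of a group it varied by 34.4% in control and 23.3% in dehydrated kidneys (SD as a percentage of the mean). Counting alone would give about 8.77% at its 78 to 193 fragments per library. Without control replicate 5 the log2 fold change was 0.60 (edgeR adjusted p = 0.053), and without dehydrated replicate 4 it was 0.26 (adjusted p = 0.58).

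Asns encodes asparagine synthetase, the enzyme that makes asparagine from aspartate and glutamine and a known ATF4 target in amino acid shortage. The gene (ENSRNOG00000007546) lies on chromosome 4 from 33743364 to 33761163 on the minus strand, in 13 merged exons of 2226 bp, and overlaps no other annotated gene. In control replicates 2 to 6 it stood at 15.8, 10.1, 16.7, 12.9 and 13.5 CPM. In dehydrated replicates 1, 2, 4, 5 and 6 it stood at 17.1, 15.3, 14.9, 17.3 and 15.0 CPM. All 5 dehydrated kidneys lay above the control mean, but only 2 of them, replicates 1 and 5, lay above the highest control.

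The Asns means were 13.8 ± 2.61 and 15.9 ± 1.17 CPM (SD, n = 5), which gave a log2 difference of 0.20 (SE 0.12, 95% interval -0.048 to 0.45; edgeR adjusted p = 0.35). Control replicate 3 had the lowest value of all 10 kidneys. Without it the log2 fold change was 0.11 (adjusted p = 0.61), and without control replicate 4 it was 0.29 (adjusted p = 0.19). The control kidneys varied by 18.9% and the dehydrated kidneys by 7.33%. Whether the spread differed between the groups was not tested.

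As a list, 0 of the 4 genes were called by edgeR, against 8.47% of all tested genes. Whether 0 of 4 differs from that share was not tested. Only 1 of the 4, Ddit3, had an unadjusted edgeR p below 0.05, against 21.4% of all tested genes. DESeq2 and limma voom also called 0, with Ddit3 alone below an unadjusted p of 0.05 in each. Of all genes, DESeq2 called 1667 of 21311 and limma voom 1240 of 15047. The authors' deposited table likewise has no adjusted p below 0.05 for these genes, with 0.38 for Atf4, 0.34 for Atf3 and 0.34 for Asns. Of all genes in it, 10.9% have one. All 4 log2 fold changes were above 0, with a median of 0.18. Of all tested genes, 48.4% were above 0, with a median of -0.0047. Among the unadjusted intervals of the 4 genes, that of Ddit3 alone lay above 0. The 4 genes were measured in the same libraries and were chosen with earlier results of these data known. Whether their shared direction is a property of the list was not tested. The median size of change regardless of sign was 0.099 over all tested genes. Among these, 49.5% changed by more than Atf4, 34.2% by more than Ddit3, 26.9% by more than Asns and 12.7% by more than Atf3.

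**Figure D2:**
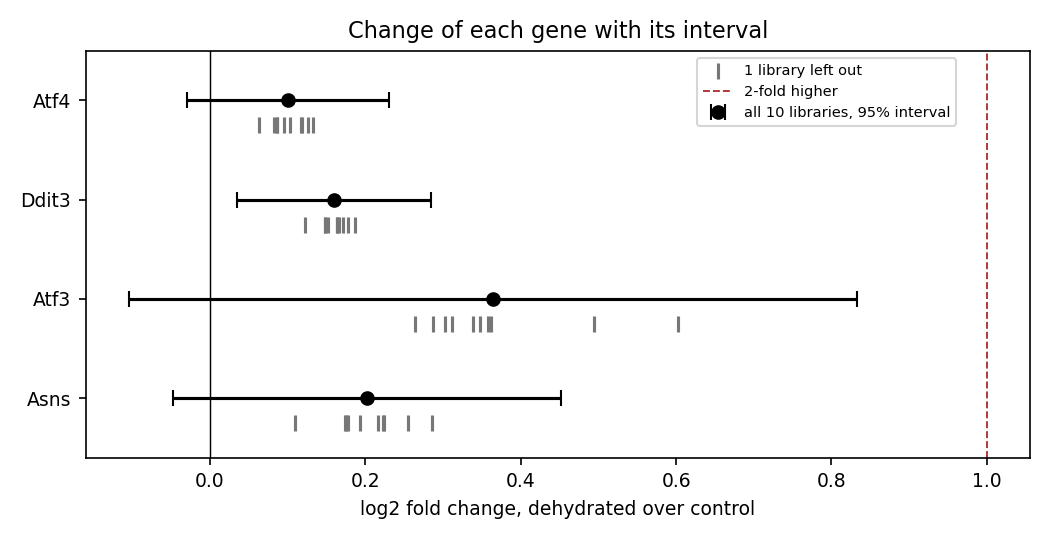
Log2 fold change of each gene, dehydrated over control (x axis). Black points with bars are the edgeR estimates from all 10 libraries with unadjusted 95% intervals, grey ticks the estimates with 1 library left out, and the dashed line a 2-fold rise. The interval of Ddit3 alone lies above 0, and no interval reaches the dashed line.

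Ratios of fragments within a library do not depend on how libraries are scaled, and they set each gene against Atf4 in the same kidney. For every 100 Atf4 fragments there were 11.7 ± 0.724 Ddit3 fragments with water and 12.2 ± 0.105 without it (SD, n = 5). The dehydrated kidneys ranged from 12.1 to 12.4, inside the control range of 10.9 to 12.4. Counting alone would give a spread of about 3.37% for Ddit3, which is wider than that of the dehydrated ratios. Their closeness is therefore not read as a link between the genes. Atf3 gave 1.59 ± 0.487 and 1.93 ± 0.431 fragments per 100 of Atf4. Asns gave 6.37 ± 1.11 and 6.90 ± 0.957. The groups overlapped for all 3 ratios, and none differed beyond the spread between kidneys. The log2 differences were 0.058 for Ddit3, 0.29 for Atf3 and 0.12 for Asns, with p of 0.33, 0.24 and 0.40 by exact two-sided permutation over all assignments of the 10 libraries (adjusted p = 0.40 for each over the 3 ratios). These sizes moved when single kidneys were left out. Without control replicate 5 the log2 difference was 0.031 for Ddit3 and 0.46 for Atf3, and without control replicate 4 it was 0.037 for Ddit3. For Asns it was 0.035 without control replicate 3, 0.062 without dehydrated replicate 5, 0.078 without dehydrated replicate 1 and 0.19 without control replicate 2. With the libraries numbered 6 exchanged, it was 0.035 for Atf3. None of these passed the test.

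**Figure D3:**
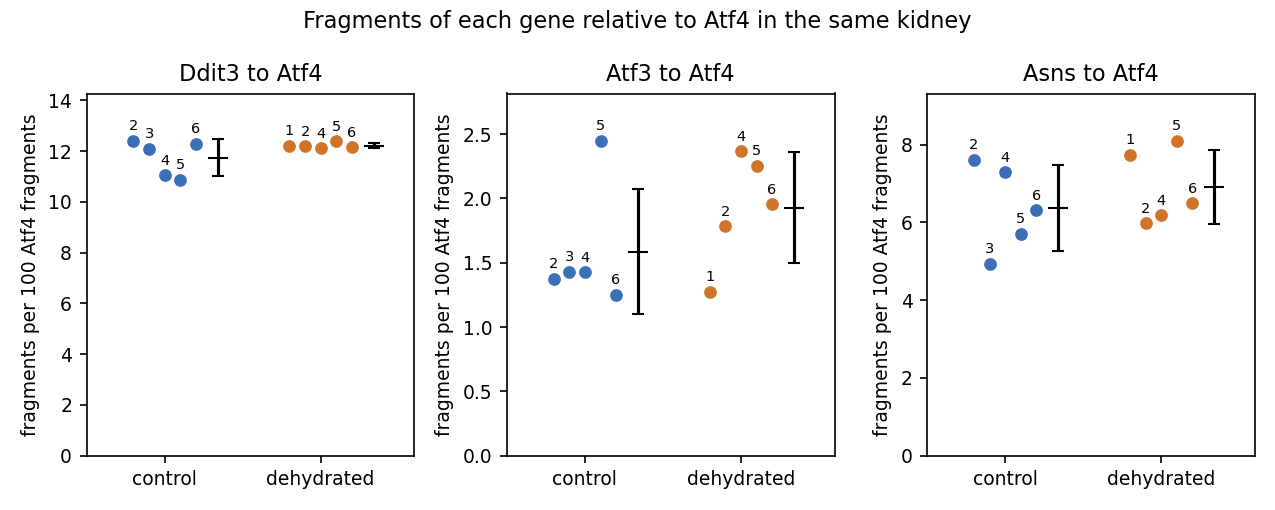
Fragments of Ddit3, Atf3 and Asns per 100 fragments of Atf4 in the same library (y axes, from 0), by group (x axes). Points are single kidneys with replicate numbers, and bars show mean ± SD of 5 kidneys. Dehydrated kidneys lie within the control range for Ddit3, at 12.1 to 12.4, and control replicate 5 stands apart for Atf3.

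Atf4 and Ddit3 took the same order among the dehydrated kidneys. From highest to lowest, both ran through replicates 2, 4, 6, 1 and 5. In control kidneys the orders differed: replicate 4 was highest for Atf4 and replicate 6 for Ddit3. Atf3 was highest in dehydrated replicate 4 and Asns in dehydrated replicate 5. The dehydrated kidney with the highest Atf4 was therefore not the one with the highest Asns. Among controls, replicate 4 was highest for both Atf4 and Asns. These orders are descriptions of 5 animals per group and were not tested.

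The tested gene most like each of the 4 over the 10 libraries, by Pearson's r of log2 CPM, had r of 0.905 for Atf4, 0.959 for Ddit3, 0.912 for Atf3 and 0.913 for Asns. Each was the highest of 12546 genes compared, which share the same libraries and scaling. None of these 4 most similar genes was called by edgeR, their adjusted p being 0.15 to 0.56. Each was picked for following a gene that was itself not called, so this adds no separate evidence. They are not named because the identifiers carry no symbols here.

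**Figure D4:**
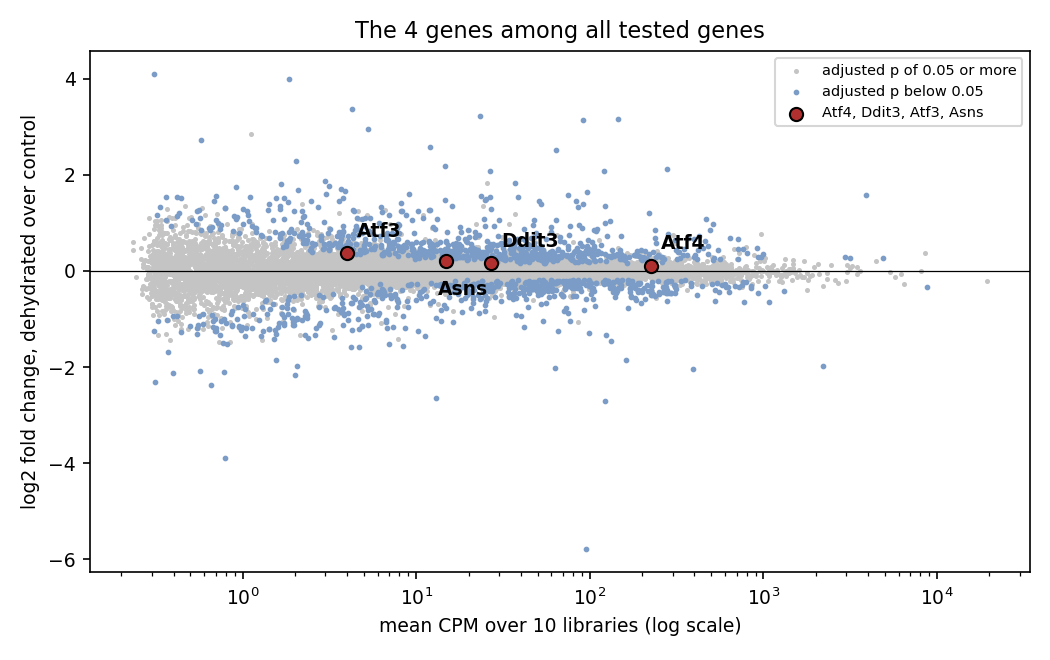
Log2 fold change, dehydrated over control (y axis), against mean CPM over 10 libraries (x axis, log scale) for the 15047 tested genes. Blue points have an edgeR adjusted p below 0.05, grey points do not, and red points are Atf4, Ddit3, Atf3 and Asns. The 4 genes lie above 0 among the grey points, at log2 fold changes of 0.10 to 0.36.

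Both replicates numbered 6 have a library name with the other group's letter, while their titles and treatment labels agree. The serial numbers that open the library names also place these libraries with the group of the letter. Without these libraries the log2 fold changes were 0.097 for Atf4, 0.17 for Ddit3, 0.28 for Atf3 and 0.21 for Asns, and none was called (edgeR adjusted p of 0.17 to 0.59). With both exchanged between the groups they were 0.058, 0.12, 0.10 and 0.15 in the same order, again with none called (edgeR adjusted p of 0.50 to 0.90). The authors' deposited table follows the titled groups: a DESeq2 fit with them matched its fold changes for every gene to within 1e-06 on the log2 scale.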

How the data were processed

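The deposited counts are whole fragment counts per Ensembl gene, made by the authors with featureCounts 1.6.2 after trimming and Rsubread alignment of paired-end reads, per the file headers. The headers name stranded counting (setting 2) and Ensembl 103 gene models of Rnor 6.0. The sources used here do not give the aligner's version or the trimming tool. The exonic length of each gene comes from the same table. The authors' deposited table of their DESeq2 comparison holds log2 fold changes with SE, p-values, adjusted p-values and a mean normalised signal (DESeq2 per the submitters' processing notes). Its 10 columns of per-library values were not used.

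Groups follow the titles. The 4 genes and the lists were chosen with earlier results of these data known. All genes were fitted together in R 4.3.3 with edgeR 4.0.16 (glmQLFit, glmQLFTest, TMM, no covariate, filterByExpr with minimum count 10 and total 15), which kept 15047 of 21311 genes with counts, the 4 genes included. The SE is the log2 fold change divided by the square root of F, in absolute value. CPM are scaled by TMM; 3 counts correspond to 0.082 to 0.10 CPM. Single values were compared by exact permutation, whose smallest p is 0.0079. The numbering of the replicates does not state a pairing. Chi-square per degree of freedom was 13.3 to 32.0 in the 20 same-group pairs, so no pair agreed within counting noise.

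The rule for named genes took all 4 genes and, for each, the most similar tested gene with a mean of at least 2 CPM. A list of 52 stress response genes and the kidney markers were not analysed here, since identifiers are not paired with symbols. The test was run on simulated counts for dehydrated against control (14936 genes), with changed genes drawn from those of at least 2 CPM. Of 50 genes changed 1.3-fold 26 were called, 40 of 50 at 1.5-fold, 50 of 50 at 2-fold and 50 of 50 at 4-fold. There were 7 unchanged genes called. No fold below 1.3 was simulated, so detection at the fitted folds of the 4 genes, 1.07 to 1.29, was not tested. Alternatives were DESeq2 1.42.0 (size factors; Wald test), limma 3.58.1 voom, no filter, a threshold of 0.1, a replicate block, each library left out, and both libraries numbered 6 left out or exchanged.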

Additional observations from a re-analysis of the deposited data

Results flagged for a closer look

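Control replicate 5 had 5.54 CPM of Atf3, far above the 2.67 to 3.28 CPM of the other controls when the distance to the next value is set against the whole range. The same kidney had 2.45 Atf3 fragments per 100 of Atf4, against 1.25 to 1.43 in the other controls. These were the 2 such gaps among 14 sets of 5 values examined, they come from the same Atf3 count, and chance gives one in about 1 of 20 sets.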

How the results depend on the processing

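All 4 genes kept a log2 fold change above 0, and none was called, under the 18 alternatives run on each. The threshold of 0.1 reuses the main fit, so its fold changes could not differ. With the titled groups the log2 fold changes were 0.063 to 0.13 for Atf4, 0.12 to 0.19 for Ddit3, 0.26 to 0.60 for Atf3 and 0.087 to 0.29 for Asns. Over all alternatives the smallest adjusted p was 0.26 for Atf4, 0.096 for Ddit3 (without dehydrated replicate 5), 0.053 for Atf3 (without control replicate 5) and 0.19 for Asns. In edgeR, 0 of the 4 genes had an unadjusted p below 0.05 without dehydrated replicate 2 or with the libraries numbered 6 exchanged. Of all genes, 2841 of 15138 and 1654 of 15047 had one, in that order. The count was 2 of the 4 without control replicate 4 (Ddit3 and Asns), without control replicate 5 and without dehydrated replicate 1 (Ddit3 and Atf3 in both). Over all genes it was 2773 of 15129, 3425 of 15120 and 3099 of 15120, in that order.

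The deviations of libraries that share a number correlated at -0.054 to 0.14, and 1 of 4 pairs exceeded 0.1, so the numbers were not taken as pairs. With the replicate number as a block, edgeR gave 0.097 for Atf4, 0.17 for Ddit3, 0.49 for Atf3 and 0.087 for Asns (adjusted p of 0.21 to 0.76), called 763 genes (426 higher, 337 lower), and the log2 ratio of Asns to Atf4 turned to -0.0096; the block rests on 4 pairs. The block fit left 2 of the 4 genes, Ddit3 and Atf3, at an unadjusted p below 0.05, and 2663 of all 15047 genes.

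Of all tested genes, 1275 were called (707 higher, 568 lower). Leaving out 1 library gave 879 to 1382 called, 485 to 763 higher and 378 to 619 lower. The fewest lower genes came without control replicate 4, and the fewest called and the fewest higher without dehydrated replicate 2. Without both libraries numbered 6, 461 were higher, in a fit with fewer libraries. Exchanging them left 0 called, 0 higher and 0 lower in edgeR, and 1654 genes had an unadjusted p below 0.05. If the titles are right, the exchange mixes the treatments by construction. Counting alone would give a spread of 1.17% for Atf4, 3.37% for Ddit3, 4.52% for Asns and 8.77% for Atf3. Between kidneys of a group it was 2.74% (Ddit3 in controls) to 34.4% (Atf3 in controls). The value for Ddit3 in controls lay below that of counting alone.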
